A study of Homo sapiens with 12 samples.

Results

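The comparison described here is that of a p53 siRNA with a control siRNA in MDA-MB-231 cells that had all been treated with TNF. It rests on 6 of the 12 arrays of the study, 3 from cells given p53 siRNA and 3 from cells given control siRNA, chosen by the labels of siRNA and treatment alone. MDA-MB-231 is an established line of human breast cancer cells whose tumour suppressor p53 is mutated, and the study asked what that mutant protein does to gene expression induced by TNF. At 48 h after transfection the cells, grown until then in 10% serum, were moved to medium with 0.1% serum, and both groups then received TNF at 10 ng/ml for 20 h. The other 6 arrays, 3 with each siRNA, came from cells handled alike without TNF. They serve here to test whether an siRNA effect differed with TNF. They also enter the normalisation, the filter on detection, the choice of a gene's probe and the shared estimate of spread, and so bear on every p-value below. All 4 groups are thus of 1 cell line in low serum, and RNA was taken at 1 time. The labels name neither the siRNA sequences nor a second p53 siRNA, so effects of the siRNA that do not pass through p53 cannot be told apart from those that do. Replicates are called biological in the labels, and p-values cover the spread among them only.

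TNF is a cytokine that binds 2 receptors, TNFRSF1A and TNFRSF1B. Through adaptor proteins and the IkB kinases it frees NF-kB, a family of dimeric transcription factors, which switches on chemokines, cytokines, adhesion molecules and its own inhibitors. Cells under long TNF exposure can also make interferon, which acts through STAT proteins and IRF9 on a promoter element, the ISRE, to switch on antiviral genes. Mutant forms of p53 no longer bind the usual p53 sites well, and they are known to bind other transcription factors instead, NF-kB among them.

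The promoters of 5 genes that stand for the groups described below are shown first, because they carry the elements through which those groups are known to be controlled. Each runs from 250 bases before the gene's start to 50 after it, is credited to RefSeq on GRCh38.p14, and has the named element in capitals, found on either strand. IFIT3 and ISG15 hold the ISRE core, GAAANNGAAA, which interferon-activated factors bind. CXCL10 holds the NF-kB consensus site, and 1 ISRE core left in lower case. CDC25C holds the CHR element, TTTGAA, through which mitotic genes are held off outside G2/M. MCM6 holds E2F sites, searched as TTTCCCGC, TTTGGCGC, TTTCGCGC and TTTGCCGC, of which 4 matches overlap in 2 stretches. In ISG15 the 2 ISRE matches overlap in 1 stretch. ISG15 was chosen after its value was seen.
IFIT3 (chr10:89327747-89328046, plus strand): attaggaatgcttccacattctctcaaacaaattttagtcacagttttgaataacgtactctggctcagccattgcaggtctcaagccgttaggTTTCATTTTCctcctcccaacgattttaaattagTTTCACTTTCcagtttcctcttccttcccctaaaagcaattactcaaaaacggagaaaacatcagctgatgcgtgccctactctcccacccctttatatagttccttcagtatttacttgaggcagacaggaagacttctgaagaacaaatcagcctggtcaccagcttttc
ISG15 (chr1:1013247-1013546, plus strand): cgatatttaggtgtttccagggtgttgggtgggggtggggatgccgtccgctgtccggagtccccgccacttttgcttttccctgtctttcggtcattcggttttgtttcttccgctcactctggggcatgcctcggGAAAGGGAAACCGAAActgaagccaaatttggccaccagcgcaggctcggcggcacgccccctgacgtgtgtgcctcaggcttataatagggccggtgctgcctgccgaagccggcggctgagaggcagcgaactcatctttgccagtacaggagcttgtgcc
CXCL10 (chr4:76023448-76023747, minus strand): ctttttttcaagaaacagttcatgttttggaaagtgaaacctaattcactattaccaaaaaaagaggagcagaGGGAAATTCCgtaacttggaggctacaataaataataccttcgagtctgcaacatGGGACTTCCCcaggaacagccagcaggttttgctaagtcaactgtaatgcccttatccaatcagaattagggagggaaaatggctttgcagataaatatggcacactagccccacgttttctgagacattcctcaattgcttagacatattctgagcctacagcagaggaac
CDC25C (chr5:138331755-138332054, minus strand): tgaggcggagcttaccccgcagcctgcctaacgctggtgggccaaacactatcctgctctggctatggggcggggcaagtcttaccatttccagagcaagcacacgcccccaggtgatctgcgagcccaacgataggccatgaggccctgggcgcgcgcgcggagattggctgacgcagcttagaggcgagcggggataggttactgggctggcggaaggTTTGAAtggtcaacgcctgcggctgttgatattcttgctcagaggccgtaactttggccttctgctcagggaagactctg
MCM6 (chr2:135876394-135876693, minus strand): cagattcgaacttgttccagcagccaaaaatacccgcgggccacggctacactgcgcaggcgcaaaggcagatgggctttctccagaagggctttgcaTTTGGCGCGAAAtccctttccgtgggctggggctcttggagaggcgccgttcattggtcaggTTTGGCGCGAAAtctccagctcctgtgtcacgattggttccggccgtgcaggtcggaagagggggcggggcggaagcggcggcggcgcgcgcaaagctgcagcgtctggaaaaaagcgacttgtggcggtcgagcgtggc

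The 2 TNF-treated groups were each tight. Within a group, arrays correlated over genes at 0.992 to 0.993, and between the groups at 0.967 to 0.97. Median intensities of the 12 arrays lay between 226.4 and 266, and 19810 to 21157 of 47322 probes were detected. The untreated p53 siRNA group was looser, with a lowest correlation of 0.974. One array of it, replicate 3, stood apart, with 551 genes at least 2-fold from the other arrays of that group. Replicates 1 and 2 had 209 and 100 such genes, against 23 to 47 for each TNF-treated array. These untreated p53 siRNA arrays enter the common distribution to which all arrays were normalised, the shared estimate of spread and the comparison with untreated cells. In the fits that left out 1 array, that normalisation was kept. Of 8 markers of the cell line, 7 were detected on all 6 TNF-treated arrays and SPARC on none. The summed level of these markers was 17.05 to 17.1 on the log2 scale in p53 siRNA arrays and 17.28 to 17.3 in control siRNA arrays. Among 12 markers of leukocytes, CD14, CD68, CSF1R, FCGR3A and LYZ were detected on all 6 arrays, and PTPRC, CD3E and NKG7 on none. CD3D was detected on all 3 p53 siRNA arrays and on 0 control siRNA arrays, with mean levels of 6.81 and 6.14, and CD79A on 2 and 3. Their summed level was 13.3 to 13.44 in p53 siRNA arrays and 13.17 to 13.33 in control siRNA arrays, and their part in the results was not tested. Among 14 markers of fibroblasts, endothelium and adipocytes, PDGFRB, LUM, PECAM1 and ADIPOQ were detected on all 6 arrays, and 8 were undetected in each group, VWF, CDH5 and PDGFRA in both. LUM was called higher, with mean levels of 9.05 in p53 siRNA arrays and 7.60 in control siRNA arrays, and PDGFRB was called lower, with 7.07 and 8.72. The summed level of these markers was 11.15 to 11.34 in p53 siRNA arrays and 10.95 to 11.12 in control siRNA arrays, and was likewise not tested for a part in the results.

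Of 12507 genes tested, 3863 passed an adjusted p of 0.05 in limma and are called here, which is 30.9% of all genes. Of the 3863, 1799 were higher with p53 siRNA (14.4% of all genes) and 2064 were lower (16.5%). Counts of called members in any gene list below are to be read against these shares. Without TNF, 2215 of the 12507 genes were called higher and 2243 lower, and counts of calls without TNF are to be read against these. At least 2-fold changes were found for 314 called genes that were higher and 542 that were lower, and at least 4-fold changes for 28 and 44. The median change of all genes was 0.01 on the log2 scale. The split depended on the scaling: with arrays scaled to a common median, the median of all genes was -0.15, and 623 genes were called higher and 2686 lower, so that 18.8% of calls were higher, in place of 46.6%. The shares of each gene list that were called in either direction are plotted by list.

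**Figure D1:**
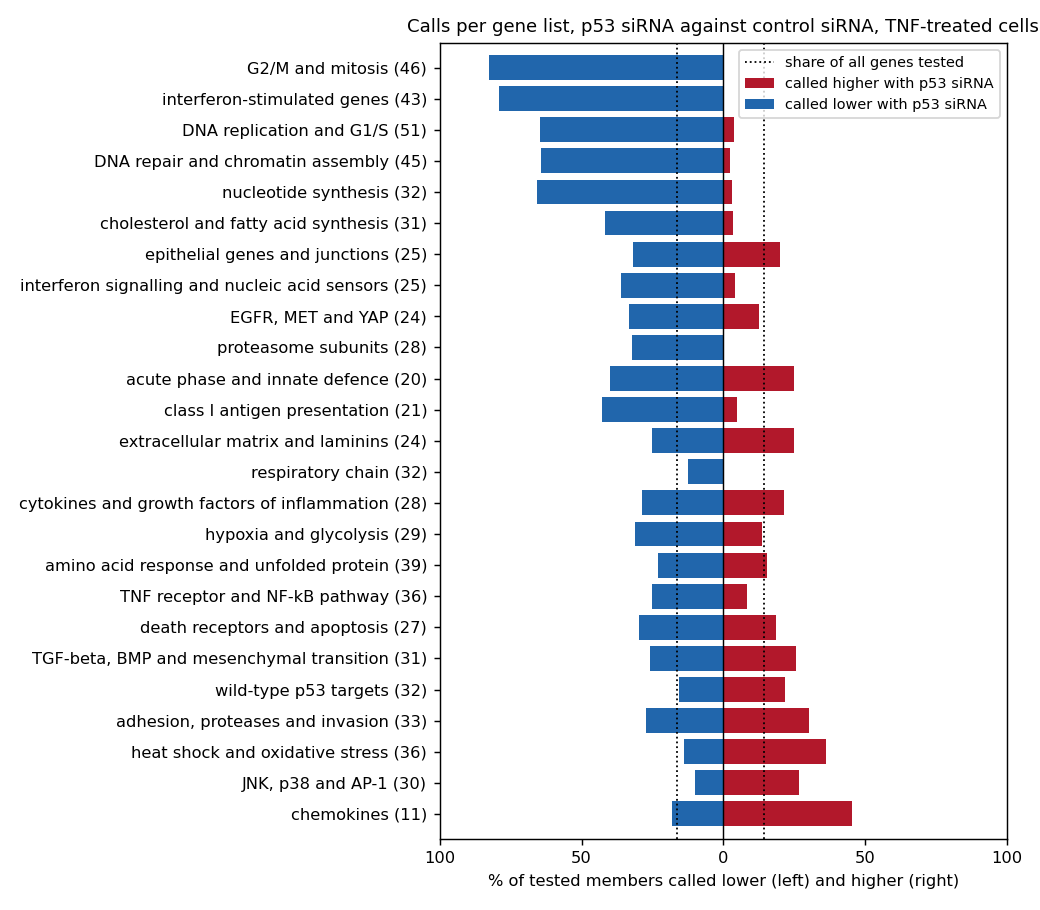
For each gene list (number of tested members in brackets), the bars give the percentage of members called higher (right, red) or lower (left, blue) with p53 siRNA in TNF-treated cells. Dotted lines mark the shares over all genes, 14.4% higher and 16.5% lower. Mitotic and interferon-stimulated genes were called lower for 82.6% and 79.1% of members and higher for none.

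Values below are normalised log2 intensities, in the order of replicates 1, 2 and 3, from TNF-treated cells unless untreated cells are named. Changes are p53 siRNA minus control siRNA on the log2 scale with the standard error from the model. For every called gene whose 6 values are given below, all 3 arrays of one group lay above all 3 of the other. For the largest changes and the list members named by rule, this separation was a condition of naming, so it is no result. The largest rise was that of PRSS35, a protein of the serine protease family, with 9.87, 9.84 and 9.98 in p53 siRNA arrays, against 6.43, 6.42 and 6.45 in control siRNA arrays. TCN1, a carrier of vitamin B12, had 11.13, 11.16 and 11.09 in p53 siRNA arrays, against 7.71, 7.80 and 7.69 in control siRNA arrays. GDF15, a stress-induced cytokine of the TGF-beta superfamily that is also a known target of wild-type p53, had 12.32, 12.24 and 12.29 in p53 siRNA arrays, against 9.17, 8.85 and 9.09 in control siRNA arrays. The changes of these 3 genes were 3.46 ± 0.37, 3.40 ± 0.20 and 3.25 ± 0.16, or 11-fold, 10.5-fold and 9.49-fold (limma, adjusted p = 4e-05, 9.82e-07 and 2.48e-07). CAPN8, a calpain protease, was undetected on all 3 control siRNA arrays and was at least 5.82-fold higher with p53 siRNA (adjusted p = 2.99e-06 in limma), while its 2 other probes changed by 0.67 and 1.23.

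The other genes among the 15 largest rises fell into a few kinds. Lipid mediator enzymes were HPGD, which breaks down prostaglandins (2.95 ± 0.23), and PLA2G4C, a phospholipase A2 (2.56 ± 0.26). Enzymes of sugar and fuel use were PGM2L1, which makes glucose 1,6-bisphosphate (2.80 ± 0.23), and PDK4, which shuts off pyruvate dehydrogenase (2.54 ± 0.27). HAS3 makes hyaluronan (2.55 ± 0.26), and AKR1C2 is an aldo-keto reductase (2.65 ± 0.16). CITED1 is a transcriptional coactivator (2.74 ± 0.15), and PI3, or elafin, is an inhibitor of neutrophil elastase (2.68 ± 0.17). GABRB1, a GABA receptor subunit (2.41 ± 0.30, second probe 0.89), ADTRP (2.37 ± 0.33) and the metallothionein MT1E (2.45 ± 0.19) complete the group. AKR1C2 and MT1E belong to families of near-identical genes whose transcripts a probe may share, and a second probe for MT1E changed by 1.15. All 15 were also called higher without TNF, as were 2215 of all 12507 genes.

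**Figure D2:**
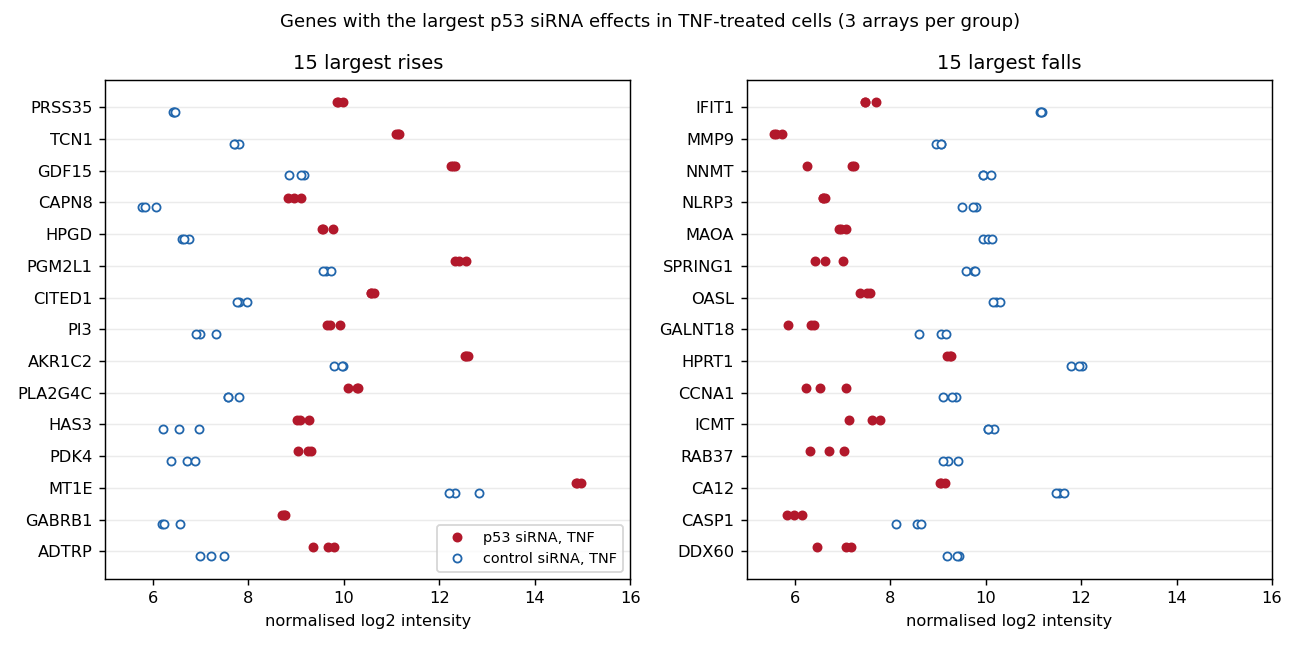
Normalised log2 intensity of the 15 genes with the largest rises (left panel) and the 15 with the largest falls (right panel) in TNF-treated cells. Filled red points are the 3 p53 siRNA arrays and open blue points the 3 control siRNA arrays of each gene. The groups do not overlap for any of the 30 genes, which was a condition of their choice.

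Falls of like size were led by IFIT1, an interferon-induced protein that binds foreign RNA. It had 7.48, 7.48 and 7.71 in p53 siRNA arrays, against 11.14, 11.17 and 11.17 in control siRNA arrays, a change of -3.60 ± 0.11 or 12.1-fold (limma, adjusted p = 1.89e-09). A second IFIT1 probe changed by only -0.43, so the size is uncertain. NLRP3, the sensor that assembles an inflammasome, had 6.64, 6.60 and 6.59 in p53 siRNA arrays, against 9.51, 9.80 and 9.73 in control siRNA arrays, a change of -3.07 ± 0.10, and its 2 other probes changed by -2.86 and -1.02. CASP1, the inflammasome's protease, which cuts the IL-1 beta precursor, was undetected on all p53 siRNA arrays and at least 3.88-fold lower. Both of these inflammasome genes were thus called lower with p53 siRNA, while the mRNA of the precursor that CASP1 cuts, IL1B, was higher (below).

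Among metabolic genes, NNMT, which methylates nicotinamide, had 6.27, 7.21 and 7.25 in p53 siRNA arrays, against 9.94, 9.95 and 10.11 in control siRNA arrays (-3.09 ± 0.23). MAOA, which breaks down monoamines, had 6.93, 7.07 and 6.97 in p53 siRNA arrays, against 9.96, 10.05 and 10.13 in control siRNA arrays (-3.05 ± 0.24). HPRT1, the purine salvage enzyme that is often used as a reference gene in quantitative PCR, had 9.28, 9.25 and 9.19 in p53 siRNA arrays, against 11.80, 12.03 and 11.95 in control siRNA arrays. That is a 6.43-fold fall (-2.68 ± 0.12, adjusted p = 1.81e-07 in limma), and the second HPRT1 probe changed by -2.67. SPRING1, needed for activation of the sterol-sensing SREBP factors, had 7.01, 6.42 and 6.64 in p53 siRNA arrays, against 9.60, 9.75 and 9.78 in control siRNA arrays (-3.02 ± 0.18). ICMT, which methylates prenylated proteins such as RAS, changed by -2.58 ± 0.20, the cyclin CCNA1 by -2.65 ± 0.19, RAB37 by -2.56 ± 0.34 (other probes -1.53 and -0.97) and the carbonic anhydrase CA12 by -2.46 ± 0.30. GALNT18, a glycosyltransferase, was undetected on all p53 siRNA arrays and at least 5.5-fold lower. The antiviral genes OASL (-2.75 ± 0.17) and DDX60 (-2.45 ± 0.23) and the protease MMP9 (below) complete the 15 largest falls. Of the 15, 14 were also called lower without TNF, as were 2243 of all 12507 genes. MMP9, undetected in untreated cells, was not.

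Interferon-stimulated genes were lower with p53 siRNA almost throughout. Of 43 tested members, 34 were called lower (79.1%, against 16.5% of all genes) and none higher, with a median change of -0.84 against 0.01 for all genes. Without TNF, 28 were called lower (2243 of 12507 over all genes), all of them among the 34. The antiviral effectors had 23 of 28 called lower. IFIT3, which joins IFIT1 in one complex, had 8.37, 8.70 and 8.52 in p53 siRNA arrays, against 10.93, 10.92 and 10.95 in control siRNA arrays (-2.40 ± 0.20), and its other probes changed by -2.56 and -2.12. OASL, a relative of the 2-5A synthetases that boosts RNA sensing, had 7.51, 7.57 and 7.36 in p53 siRNA arrays, against 10.22, 10.30 and 10.16 in control siRNA arrays, and its second probe changed by -2.07. GBP4, a guanylate-binding protein, had 8.24, 8.70 and 8.53 in p53 siRNA arrays, against 10.67, 10.93 and 11.06 in control siRNA arrays (-2.40 ± 0.30). All 5 measured genes of the ISG15 system, which attaches a ubiquitin-like tag to proteins, were called lower, with a median of -1.56, and at least 4 were under each other setting tried. ISG15 itself had 11.37, 11.32 and 11.17 in p53 siRNA arrays, against 12.99, 12.69 and 12.86 in control siRNA arrays (-1.56 ± 0.18, adjusted p = 6.11e-05 in limma). The 9 members not called included OAS1 at 0.32, whose other probes were at -0.91 and -0.64, and EIF2AK2 at -0.18, both picked after their values were seen. With one array left out at a time, or under the other settings tried, between 29 and 38 members were called lower and none higher.

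The signalling genes upstream moved less. Of 25 interferon signalling and sensor genes, 9 were called lower and 1 higher. IRF1, a transcription factor of both interferon and NF-kB responses, had 11.47, 11.34 and 11.28 in p53 siRNA arrays, against 12.68, 12.64 and 12.59 in control siRNA arrays (-1.27 ± 0.24, adjusted p = 0.00205 in limma). The receptor subunit IFNAR2 changed by -1.16 ± 0.11, and the RNA sensor IFIH1 by -1.11 ± 0.19. TLR3, a sensor of double-stranded RNA, was undetected on all p53 siRNA arrays and at least 2.27-fold lower. The 1 call higher, TLR4 (0.42 ± 0.12), was lost when any of control siRNA TNF-treated replicates 1 or 2 or p53 siRNA TNF-treated replicates 1 or 2 was left out (0.40, 0.37, 0.42 and 0.38) and with median scaling (0.20).

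The ISRE core shown in capitals in the IFIT3 and ISG15 promoters was found in 25 of 34 promoters of interferon-stimulated genes (73.5%) and in 19 of the 25 whose gene was called lower (76.0%). It was present in 3.65% of all 27305 promoters and in 3.0% of the 9985 promoters of tested genes. The list was made of genes known to respond to interferon, so the share describes the list and not the siRNA effect.

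Class I antigen presentation was divided. The immunoproteasome, the form of the proteasome that interferon induces for cutting peptides, had 5 of 5 members called lower with a median of -1.09, and at least 4 remained called with any array left out. PSMB9, a catalytic subunit, had 9.36, 9.36 and 9.76 in p53 siRNA arrays, against 11.39, 11.65 and 11.57 in control siRNA arrays (-2.04 ± 0.27, second probe -1.21). PSMB10 changed by -1.40 ± 0.26. Both subunits of the peptide transporter fell: TAP1 had 11.18, 11.30 and 11.25 in p53 siRNA arrays, against 13.20, 13.17 and 13.14 in control siRNA arrays (-1.93 ± 0.18) and TAP2 had 8.62, 8.49 and 8.79 in p53 siRNA arrays, against 10.70, 10.84 and 10.72 in control siRNA arrays (-2.12 ± 0.19). The presenting molecules themselves had 1 of 6 members called, HLA-E (-0.68), and a median of -0.15. Second probes changed by -1.40 for HLA-F, not called at -0.16, and by 0.11 for B2M, not called at 0.06. Ordinary proteasome subunits had 9 of 28 called lower (32.1%, and 15 with array weights) and none higher, with PSMC1 at -1.08 ± 0.10 and PSMD12 at -0.98 ± 0.16.

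**Figure D3:**
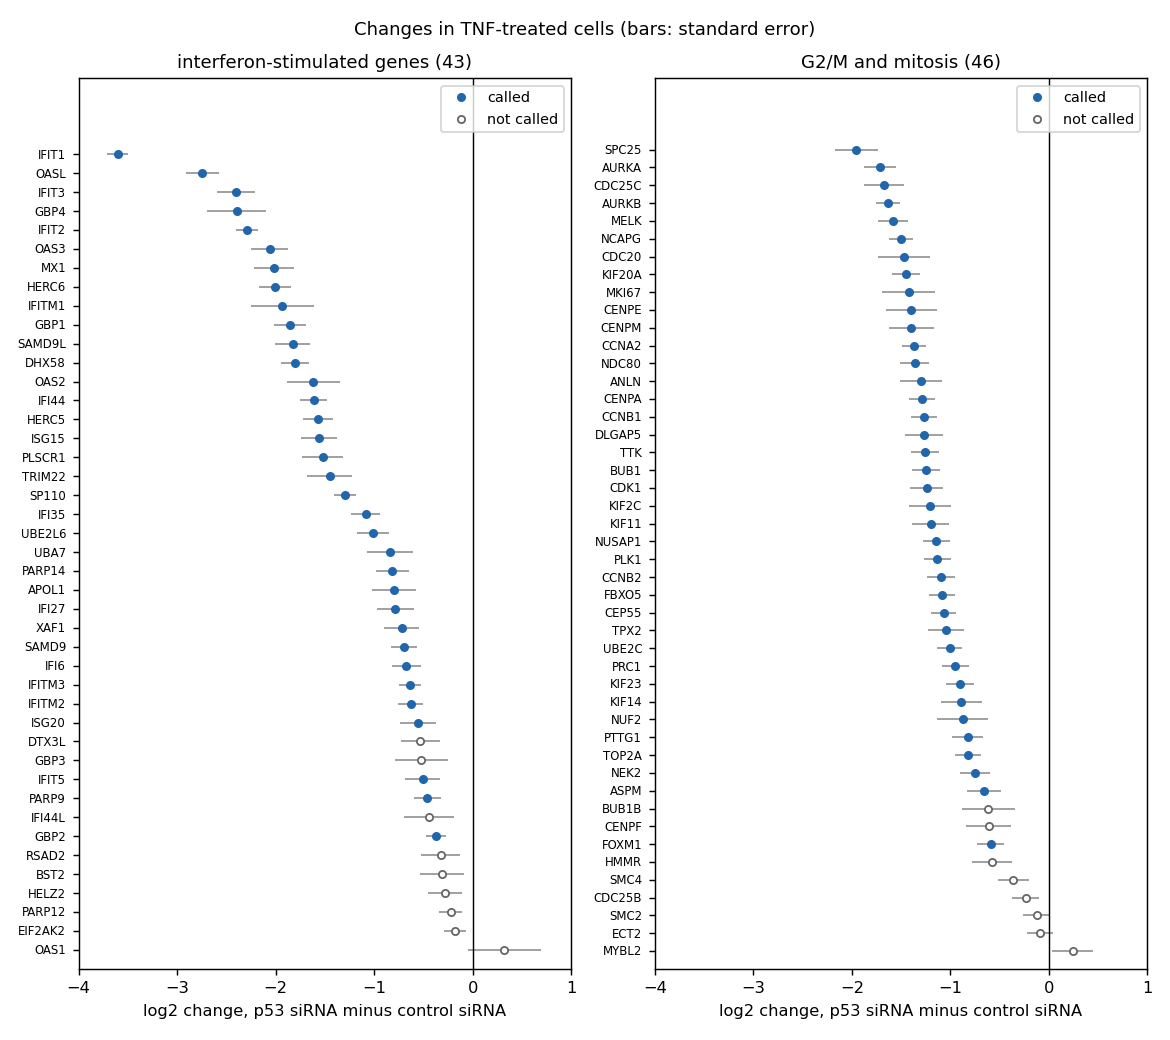
Change with p53 siRNA in TNF-treated cells (log2, points) and its standard error (bars) for every tested interferon-stimulated gene (left, 43) and every tested gene of the G2/M and mitosis list (right, 46). Filled blue points are called and open points are not. All but 1 member of each list lie left of 0, from -3.60 to 0.32 and from -1.96 to 0.25.

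Genes of the TNF receptor and NF-kB pathway did not move as one. TNFRSF1A, the receptor on nearly all cells, had 11.29, 11.29 and 11.41 in p53 siRNA arrays, against 11.92, 11.85 and 11.68 in control siRNA arrays (-0.49 ± 0.13, adjusted p = 0.0163 in limma). TNFRSF1B had 7.72, 6.60 and 7.44 in p53 siRNA arrays, against 7.95, 8.26 and 8.27 in control siRNA arrays (-0.91 ± 0.25, adjusted p = 0.0168 in limma). Both were called lower, and both calls were lost with some single arrays left out. For TNFRSF1A these were control siRNA replicates 1 and 2 and p53 siRNA replicates 1 and 2 of the TNF-treated arrays (-0.43, -0.47, -0.47 and -0.47), and for TNFRSF1B control siRNA replicates 2 and 3 and p53 siRNA replicate 2 (-0.86, -0.85 and -0.58). Among the IkB kinases, IKBKE, which also phosphorylates interferon regulatory factors, had 9.93, 10.26 and 10.15 in p53 siRNA arrays, against 11.20, 11.28 and 10.91 in control siRNA arrays (-1.02 ± 0.18). IKBKG, the regulatory subunit, changed by 0.39 ± 0.11, a call lost without p53 siRNA TNF-treated replicate 2 (0.37) and with median scaling (0.19). CHUK, IKBKB, TBK1 and MAP3K14 were not called, at -0.17, 0.25, 0.12 and 0.18.

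Of the 5 NF-kB subunits, only NFKB1 was called. It had 12.79, 12.73 and 12.58 in p53 siRNA arrays, against 13.11, 13.01 and 13.28 in control siRNA arrays (-0.43 ± 0.12), and its call was lost without control siRNA TNF-treated replicate 3 (-0.36) or p53 siRNA TNF-treated replicate 3 (-0.37). RELA changed by 0.17 ± 0.15, RELB by -0.13 ± 0.12, REL by 0.20 ± 0.34 and NFKB2 by -0.32 ± 0.15, none of them called. Of 13 inhibitor and feedback genes, 4 were called lower (30.8%, against 16.5% of all genes) and 2 higher (15.4%, against 14.4%), with a median of -0.39. TNFAIP3, the deubiquitinase A20 that ends TNF signalling, had 8.74, 8.70 and 8.58 in p53 siRNA arrays, against 9.54, 9.45 and 9.35 in control siRNA arrays (-0.78 ± 0.15, adjusted p = 0.00192 in limma). BIRC2, a ubiquitin ligase bound to the receptor complex and not one of these inhibitors, changed by -0.73 ± 0.18. NFKBIZ, an atypical nuclear IkB, changed by 0.80 ± 0.11, but its second probe by 0.06, and its call was lost with the mean of its probes (0.43). ZC3H12A, the other inhibitor called higher, changed by 0.51 ± 0.14. That call was lost with median scaling (0.30) and without some single TNF-treated arrays. Over the 36 pathway genes tested, 9 were called lower and 3 higher, with a median of -0.11. The 3 became 5 without p53 siRNA untreated replicate 3, 1 without p53 siRNA TNF-treated replicate 2, 1 with median scaling, 5 with TNF-treated arrays alone and 7 with array weights.

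Chemokines and cytokines, the secreted products of the response, split between strong rises and strong falls. Of 4 CXC chemokines tested that draw neutrophils, CXCL1, CXCL2 and CXCL8 were called higher and CXCL3 was not, at 0.19 ± 0.27. CXCL2 had 11.14, 10.81 and 10.84 in p53 siRNA arrays, against 9.07, 9.01 and 9.19 in control siRNA arrays (1.84 ± 0.20), and CXCL1 had 12.98, 13.25 and 13.22 in p53 siRNA arrays, against 12.11, 11.86 and 12.04 in control siRNA arrays (1.15 ± 0.21). CCL20, which draws dendritic and T cells through CCR6, had 10.25, 10.01 and 10.13 in p53 siRNA arrays, against 9.07, 9.53 and 8.99 in control siRNA arrays (0.94 ± 0.15). The receptor CXCR4 changed by 1.25 ± 0.15. CXCL10, an interferon- and NF-kB-driven chemokine for T cells, was lower, with 8.97, 9.22 and 9.18 in p53 siRNA arrays, against 11.16, 11.24 and 11.11 in control siRNA arrays (-2.05 ± 0.15, adjusted p = 2.99e-06 in limma). CX3CL1, a membrane-bound chemokine, had 7.02, 7.71 and 8.19 in p53 siRNA arrays, against 9.84, 9.68 and 9.87 in control siRNA arrays (-2.16 ± 0.25). CXCL8 changed by 0.46 ± 0.14 (adjusted p = 0.0281 in limma), and CXCL8 and CXCL3 are named to complete the 4. In all, 5 of 11 tested chemokine genes were called higher and 2 lower, and 3 were higher among genes detected on all 12 arrays.

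IL1A and IL1B, the 2 forms of interleukin-1, were both higher. IL1A had 11.78, 11.90 and 11.80 in p53 siRNA arrays, against 9.87, 9.83 and 9.82 in control siRNA arrays (1.99 ± 0.26, 3.97-fold), and IL1B had 13.03, 13.06 and 13.08 in p53 siRNA arrays, against 11.90, 11.87 and 11.75 in control siRNA arrays (1.22 ± 0.11, 2.33-fold). TNFSF15, a TNF-like cytokine, changed by 1.17 ± 0.27. In the other direction, EBI3, a subunit shared by IL-27 and IL-35, had 7.34, 7.47 and 8.0 in p53 siRNA arrays, against 9.83, 9.71 and 9.71 in control siRNA arrays (-2.15 ± 0.17). LTB, the membrane partner of lymphotoxin, had 9.16, 9.51 and 9.53 in p53 siRNA arrays, against 11.70, 11.37 and 11.68 in control siRNA arrays (-2.18 ± 0.20). IL7 was undetected on all p53 siRNA arrays and at least 1.43-fold lower, and IL23A changed by -1.08 ± 0.23. Of 28 tested members, 6 were called higher (21.4%, against 14.4% of all genes) and 8 lower (28.6%, against 16.5%). Among genes detected on all 12 arrays, 3 were lower. PTGS2, the inducible cyclooxygenase COX-2, had 14.26, 14.27 and 14.25 in p53 siRNA arrays, against 12.03, 11.92 and 11.94 in control siRNA arrays, a rise of 4.91-fold (2.30 ± 0.16, adjusted p = 2.8e-06 in limma). HPGD, which degrades the prostaglandins that PTGS2 leads to, rose in the same cells.

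Acute phase genes were mostly lower in the serum amyloid and complement group, with 6 of 8 called lower and none higher (1 lower among genes detected on all 12 arrays). SAA1 had 8.86, 8.70 and 8.48 in p53 siRNA arrays, against 10.17, 10.35 and 10.19 in control siRNA arrays (-1.56 ± 0.17), and C1R, undetected on all p53 siRNA arrays, was at least 1.89-fold lower. IDO1, the tryptophan-degrading enzyme that interferon induces, had 6.80, 6.48 and 7.03 in p53 siRNA arrays, against 8.48, 8.80 and 8.70 in control siRNA arrays (-1.89 ± 0.19). Among proteases of invasion, MMP9, the gelatinase, had 5.56, 5.60 and 5.73 in p53 siRNA arrays, against 9.07, 8.96 and 9.06 in control siRNA arrays. It was undetected with p53 siRNA and at least 5.83-fold lower. MMP9 passed the filter on detection through these control siRNA arrays alone, so its call is no independent support. PLAU, the urokinase, had 13.68, 13.78 and 13.78 in p53 siRNA arrays, against 15.24, 15.26 and 15.39 in control siRNA arrays (-1.55 ± 0.18). MMP1, the interstitial collagenase, was higher at 1.06 ± 0.21, and the lysosomal protease CTSD at 1.16 ± 0.11. Protease inhibitors had 5 of 6 members called higher and none lower, TIMP2 (1.39 ± 0.12, second probe 0.04) and TIMP3 (0.90 ± 0.12) among them, and 3 of 6 with median scaling.

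Mitotic genes had the highest share of members called lower among the whole lists. Of 46 tested genes of G2/M and mitosis, 38 were called lower (82.6%, against 16.5% of all genes) and none higher, with a median of -1.14. All but 1 of the 38 were also called lower without TNF, where 2243 of all 12507 genes were. AURKA, the kinase that builds the spindle poles, had 10.95, 11.03 and 11.15 in p53 siRNA arrays, against 12.83, 12.61 and 12.83 in control siRNA arrays (-1.71 ± 0.16, second probe -1.57). AURKB, the kinase of the chromosomal passenger complex, had 9.52, 9.67 and 9.64 in p53 siRNA arrays, against 11.24, 11.31 and 11.18 in control siRNA arrays (-1.63 ± 0.12). CDC25C, the phosphatase that activates CDK1, had 8.11, 7.49 and 7.27 in p53 siRNA arrays, against 9.24, 9.36 and 9.29 in control siRNA arrays (-1.67 ± 0.20). SPC25, a kinetochore subunit, changed by -1.96 ± 0.22 and its second probe by -0.55. MYBL2 was the 1 member above 0, at 0.25 and not called, and is named for that reason. Between 37 and 42 members were called lower under all settings tried.

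DNA replication followed the same direction. Of 51 genes of replication and G1/S, 33 were called lower (64.7%) and 2 higher, with a median of -0.71. MCM6, a subunit of the replicative helicase, had 10.07, 9.97 and 9.94 in p53 siRNA arrays, against 11.98, 11.75 and 11.78 in control siRNA arrays (-1.84 ± 0.17, adjusted p = 1.37e-05 in limma). MCM10, which activates that helicase, had 7.55, 7.37 and 7.95 in p53 siRNA arrays, against 9.47, 9.49 and 9.36 in control siRNA arrays (-1.82 ± 0.18, second probe -1.12). The factor E2F2, which drives S-phase genes, changed by -1.75 ± 0.34. Both members called higher act against cell cycle entry: CDKN1B, the CDK inhibitor p27, had 11.74, 11.56 and 11.78 in p53 siRNA arrays, against 10.39, 10.65 and 10.42 in control siRNA arrays (1.20 ± 0.13, second probe 1.02), and E2F7, a repressor of E2F targets, had 13.39, 13.33 and 13.40 in p53 siRNA arrays, against 12.22, 12.08 and 12.15 in control siRNA arrays (1.22 ± 0.14). CDK4 and CDK6, kinases of early G1 picked after their values were seen, were not called, at 0.26 and -0.08. Side by side, the median of the list was -0.71 with TNF and -1.31 without, and no member passed the test of the difference.

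Supply and packaging of DNA moved with it. Of 32 genes of nucleotide synthesis, 21 were called lower (65.6%, against 16.5% of all genes) and 1 higher, with a median of -0.63. RRM2, the limiting subunit of ribonucleotide reductase, had 7.34, 7.55 and 7.40 in p53 siRNA arrays, against 9.39, 9.41 and 9.22 in control siRNA arrays (-1.91 ± 0.22). TYMS, which makes thymidylate, had 10.68, 10.76 and 10.86 in p53 siRNA arrays, against 12.61, 12.48 and 12.58 in control siRNA arrays (-1.79 ± 0.13), and TK1, thymidine kinase, changed by -1.85 ± 0.21. Among 45 genes of DNA repair and chromatin assembly, 29 were called lower and 1 higher, with a median of -0.67. CHAF1B, a subunit of the histone chaperone CAF-1, had 6.97, 6.52 and 7.08 in p53 siRNA arrays, against 9.23, 9.11 and 9.08 in control siRNA arrays (-2.28 ± 0.19). HELLS, a chromatin remodeller, had 6.48, 6.86 and 6.62 in p53 siRNA arrays, against 8.96, 8.77 and 8.81 in control siRNA arrays (-2.20 ± 0.19). The checkpoint kinase CHEK1 changed by -1.41 ± 0.17, and UHRF1, which guides DNA methylation, by -1.56 ± 0.18, with its second probe at -0.56. How many cells were in each phase was not measured, so fewer cycling cells and less of these RNAs per cell cannot be told apart.

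The CHR element capitalised in CDC25C was in 28 of 40 promoters of the mitotic list (70.0%), in 22 of the 32 called lower (68.8%), in 15.6% of all promoters and in 10.7% of those of tested genes. It was in none of the 42 promoters of the replication list. E2F sites like those capitalised in MCM6 were in 18 of these 42 (42.9%), in 15 of the 29 called lower (51.7%), in 3.27% of all promoters and in 5.2% of those of tested genes. These letters describe the windows, and no factor's binding was measured.

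Wild-type p53 targets showed no common direction. Of 32 tested, 7 were called higher (21.9%, against 14.4% of all genes) and 5 lower (15.6%, against 16.5%), with a median of 0.05. With median scaling 4 were called higher and the median was -0.14, with TNF-treated arrays alone 11 were called higher, and the 5 became 3 when probes of a gene were averaged. GDF15 led the rises, followed by SESN2, a stress-induced inhibitor of mTORC1 (1.15 ± 0.21), PERP, a desmosomal and pro-apoptotic protein (1.13 ± 0.25), and SESN1 (0.96 ± 0.11). DDB2, a DNA damage sensor (-1.61 ± 0.23), and SFN, the 14-3-3 sigma protein (-1.25 ± 0.19), were lower. Regulators of cell death were divided as well. BMF, a pro-apoptotic BCL2 family member, had 9.82, 9.73 and 9.44 in p53 siRNA arrays, against 7.80, 7.49 and 7.75 in control siRNA arrays (1.99 ± 0.12, second probe 2.33), and CFLAR, which blocks caspase-8, changed by 0.74 ± 0.12. MLKL, the executor of necroptosis, had 10.62, 10.65 and 10.50 in p53 siRNA arrays, against 12.14, 12.04 and 12.19 in control siRNA arrays (-1.53 ± 0.16), and BID, which links caspase-8 to mitochondria, changed by -1.09 ± 0.12. Of 27 such genes 8 were called lower (29.6%, against 16.5% of all genes) and 5 higher (18.5%, near the 14.4% of all genes). The 5 became 3 without control siRNA TNF-treated replicate 1 and 2 with median scaling.

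Metallothioneins, small proteins that bind zinc and copper, had 5 of 5 tested members called higher (14.4% of all genes), under each of the settings tried, with a median of 1.26. MT1E had 14.89, 14.85 and 14.96 in p53 siRNA arrays, against 12.33, 12.83 and 12.19 in control siRNA arrays, MT1X changed by 1.64 ± 0.14 and MT1G by 1.26 ± 0.15. Targets of NRF2, the oxidant-response factor, were evenly divided at 5 higher and 5 lower of 20 (25% each, against 14.4% and 16.5% of all genes). GCLM, which makes glutathione, had 10.27, 10.39 and 10.43 in p53 siRNA arrays, against 11.75, 11.76 and 11.80 in control siRNA arrays (-1.41 ± 0.10, second probe -0.58), and ALDH1A3, an aldehyde dehydrogenase, changed by -1.48 ± 0.14. Of 31 genes of cholesterol and fatty acid synthesis, 13 were called lower and 1 higher, with a median of -0.33. INSIG1, the sterol-sensitive brake on SREBP, had 12.33, 12.29 and 12.28 in p53 siRNA arrays, against 13.80, 13.86 and 13.99 in control siRNA arrays (-1.58 ± 0.10, second probe -1.38). ACLY and ACSS2, which make cytosolic acetyl-CoA, changed by -1.05 ± 0.12 and -1.10 ± 0.14, and MVK, mevalonate kinase, by -0.97 ± 0.11.

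Most of the siRNA effect was shared with untreated cells. The contrasts with and without TNF share no array. Without TNF, 4458 of 12507 genes were called, 2215 higher and 2243 lower. In both contrasts 2848 were called in the same direction, which is 73.73% of the calls with TNF and 63.89% of those without. Only 8 were called in opposite directions. Whether an effect differed with TNF was tested as the difference of the 2 effects, and 27 genes passed (0.216% of all genes; limma, adjusted p of 0.05), 10 with a positive difference and 17 with a negative one. At an unadjusted p of 0.05 there were 1282. The count moved with single arrays: it was 132 without p53 siRNA untreated replicate 3, the array that stood apart. Without control siRNA untreated replicates 1, 2 or 3 it was 13, 12 or 15, without control siRNA TNF-treated replicates 1, 2 or 3 it was 11, 16 or 12, and without p53 siRNA TNF-treated replicates 1, 2 or 3 it was 11, 11 or 13. PI3 and CXCL10, detected on at least 2 arrays in at least 3 of the 4 groups, kept their call under all 18 alternatives that gave a value for them.

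**Figure D4:**
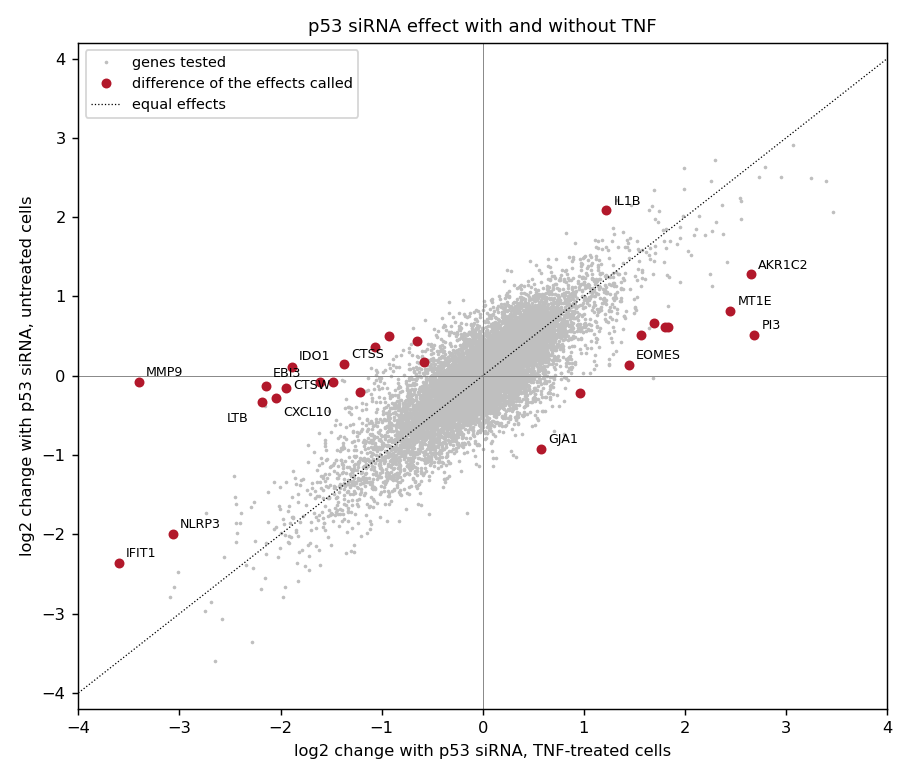
Log2 change with p53 siRNA in TNF-treated cells (horizontal) against that in untreated cells (vertical) for 12507 genes (grey). Red points are the 27 genes whose 2 changes differed by the test of the difference. Most genes lie along the dotted line of equal effects, and MMP9, detected with control siRNA and TNF alone, lies farthest from it, at -3.40 with TNF and -0.07 without.

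The largest negative differences belonged to genes at or near background on untreated arrays. For MMP9 the untreated values were 5.48, 5.49 and 5.55 in untreated p53 siRNA arrays, against 5.54, 5.59 and 5.61 in untreated control siRNA arrays, none of them detected, so that MMP9 was above background in control siRNA cells with TNF alone and its difference is no measure of size. EBI3 was undetected in both untreated groups as well, and its fitted difference was -2.02 ± 0.23 (adjusted p = 0.00505 in limma). CXCL10 had 6.73, 6.63 and 6.23 in untreated p53 siRNA arrays, against 6.64, 6.77 and 7.02 in untreated control siRNA arrays, a difference of -1.77 ± 0.21. LTB had 5.59, 5.55 and 5.99 in untreated p53 siRNA arrays, against 6.48, 5.74 and 5.91 in untreated control siRNA arrays, with 1 of these 6 arrays detected. Its difference of -1.85 ± 0.28 lost its call under 7 of 18 alternatives, all of which left out 1 array (control siRNA untreated replicates 2 or 3, control siRNA TNF-treated replicates 1 or 3, or any p53 siRNA TNF-treated replicate). IDO1 was detected on 1 of the 6 untreated arrays (difference -2.0 ± 0.27). CTSW and CTSS, which encode the cathepsins W and S, were undetected on all 6. Where both untreated groups were at background, an siRNA effect without TNF could not have been measured, and the difference then rests on the TNF-treated arrays alone. MMP9, CTSW and CTSS passed the filter on detection through the control siRNA cells with TNF alone. In TNF-treated cells CTSW was undetected with p53 siRNA and at least 3.43-fold lower, and CTSS at least 1.6-fold lower. NF-kB sites like those capitalised in CXCL10 were in 2 of the 12 promoters at hand of genes with a negative difference (16.7%), CXCL10 and LTB. They were in 5.78% of all promoters and in 6.69% of those of tested genes. The ISRE core was also in 2 of the 12 (16.7%), CXCL10 and IFIT1, against 3.65% and 3.0%. Shares that rest on 2 promoters describe these windows only.

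IFIT1 and NLRP3 differed in another way, being detected in untreated control cells. IFIT1 had 8.99, 9.10 and 9.26 in untreated p53 siRNA arrays, against 11.45, 11.51 and 11.47 in untreated control siRNA arrays, so that its fall was -3.60 with TNF and -2.36 without (difference -1.24 ± 0.15, adjusted p = 0.00558 in limma), a call lost with median scaling and with the mean of its probes. NLRP3 had 6.35, 6.33 and 6.29 in untreated p53 siRNA arrays, against 8.31, 8.34 and 8.30 in untreated control siRNA arrays, and its difference of -1.08 ± 0.14 was also lost with the mean of its probes. NLRP3 was detected on 1 of these 3 untreated p53 siRNA arrays. Its fall without TNF may thus be understated, and the difference gives no size. TNIP1, an A20-binding inhibitor of NF-kB that was chosen after its values were seen, went in opposite directions: its change was -0.65 with TNF and 0.44 without, both called (difference -1.09 ± 0.14, adjusted p = 0.00816 in limma). IL1B was higher with p53 siRNA in both settings but by less with TNF. Its untreated values were 10.21, 10.25 and 10.06 in untreated p53 siRNA arrays, against 7.94, 8.23 and 8.08 in untreated control siRNA arrays, and the rise was 1.22 with TNF and 2.09 without. That difference, -0.87 ± 0.15, had an adjusted p of 0.0496 in limma and kept its call under 3 of 19 alternatives.

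Positive differences included that of PI3, with 9.91, 9.71 and 9.63 in p53 siRNA arrays, against 6.99, 6.90 and 7.31 in control siRNA arrays under TNF. Its untreated values were 6.17, 6.75 and 6.53 in untreated p53 siRNA arrays, against 5.91, 5.77 and 6.23 in untreated control siRNA arrays. Its change was 2.68 with TNF and 0.52 without (difference 2.17 ± 0.25, adjusted p = 0.00505 in limma). PI3 was detected on 0 untreated control siRNA arrays and 2 untreated p53 siRNA arrays. Its effect without TNF may thus be understated, and the difference gives no size. MT1E differed by 1.63 ± 0.27, AKR1C2 by 1.37 ± 0.23, the gap junction protein GJA1 by 1.49 ± 0.23 and the T-box factor EOMES by 1.30 ± 0.21. These 4 kept their call under 7 of 19, 7 of 19, 8 of 19 and 7 of 18 alternatives. For MT1E the untreated values were 14.82, 14.97 and 14.59 in untreated p53 siRNA arrays, against 13.60, 14.15 and 14.17 in untreated control siRNA arrays, and control siRNA cells with TNF had the lowest level of the 4 groups. EOMES was undetected in control siRNA cells with and without TNF and was detected on 1 untreated p53 siRNA array, so its difference gives no size. In TNF-treated cells it was at least 1.87-fold higher with p53 siRNA. EOMES passed the filter on detection only through the p53 siRNA cells with TNF, so its calls are no independent support. GJA1 was higher with p53 siRNA under TNF (0.57) and lower with it in untreated cells (-0.92), both called, although the call under TNF was lost with median scaling (0.40) and without control siRNA TNF-treated replicates 1 or 3 or p53 siRNA TNF-treated replicates 2 or 3 (0.53, 0.57, 0.55 and 0.56).

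**Figure D5:**
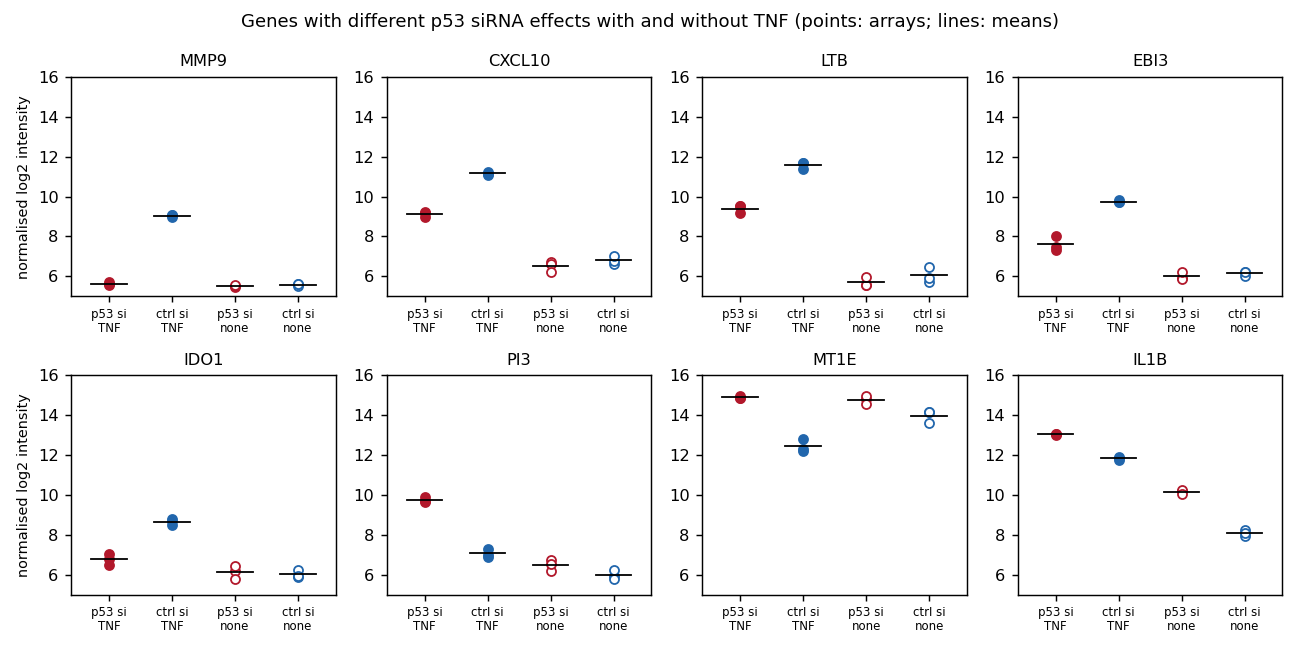
Normalised log2 intensity of 8 genes with a called difference of the siRNA effect in the 4 groups (p53 siRNA with TNF, control siRNA with TNF, p53 siRNA untreated, control siRNA untreated). Points are single arrays (filled with TNF, open without) and lines are means of 3. MMP9, CXCL10, LTB, EBI3 and IDO1 are highest with control siRNA and TNF, while PI3 and IL1B are highest with p53 siRNA and TNF.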

How the data were processed

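RNA of 12 MDA-MB-231 cultures was hybridised to 1-colour Illumina bead arrays, 3 per group. The main table deposited by the authors gives intensity values and detection p-values of 47322 probes, per the file headers. GenomeStudio appears among the tools in the submitters' processing notes, without a version. The authors also deposited a processed intensity table (47313 probes, median 241.6 in each column). It correlated with the main table at 0.999 or above on every array, its normalisation is unknown here, and it served as an alternative.

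Intensities were background-corrected and quantile-normalised (offset 16) and put on the log2 scale with neqc from limma 3.58.1 in R 4.3.3. A probe was kept if its detection p-value was below 0.05 on 3 or more arrays and the platform annotation, which can be old, gave it 1 gene. The brightest probe stood for its gene, leaving 12507 genes. Of 30107 probes with 1 gene, 30068 matched RefSeq by Entrez ID. One model of 4 group means covered the 12 arrays (lmFit and eBayes in limma, 8 residual and 4.03 prior degrees of freedom), with 2-sided tests and Benjamini-Hochberg adjustment over all genes. It was tested on simulated data. For genes without a detected array in one group, "at least N-fold" sets the brighter group's mean against the dimmer group's floor, which on each array was its lowest detected signal or, if higher, the probe's own.

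Named genes were, by rule, the 15 largest rises and falls, up to 4 called members per direction of each of 29 lists, the receptors, kinases and subunits of the NF-kB pathway, and the 5 largest differences of each sign. The comparison, its genes and the lists were chosen with earlier results of these data known. Depletion of the siRNA target is not reported here. Same-numbered TNF-treated arrays did not deviate together (correlations of 0.0647, 0.00398 and -0.000395), so numbers were not used as pairs. The number of arrays limits the precision.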

Additional observations from a re-analysis of the deposited data

Results flagged for a closer look

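The p53 siRNA effect differed between TNF-treated and untreated cells, by limma's test of the difference itself, for 27 genes. Among the genes named by rule, the difference of the effects (TNF-treated minus untreated, log2) was positive for PI3 (2.17), MT1E (1.63), GJA1 (1.49), AKR1C2 (1.37) and EOMES (1.30). It was negative for MMP9 (-3.33), EBI3 (-2.02), IDO1 (-2.0), LTB (-1.85), CTSW (-1.79), CXCL10 (-1.77), CTSS (-1.52), IFIT1 (-1.24), NLRP3 (-1.08) and IL1B (-0.87). MMP9, CTSW and CTSS were detected in control siRNA cells with TNF alone, EBI3 in no untreated cells, and EOMES not in control siRNA cells with TNF, so for these 5 genes the fitted values include background signals, give no size and are not to be ranked. IDO1 and LTB were each detected on 1 of 6 untreated arrays, NLRP3 on 1 of 3 untreated p53 siRNA arrays, and PI3 on no untreated control siRNA array. No group held 4 or more arrays, so single values were not screened for outliers.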

How the results depend on the processing

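The count of genes called with TNF was 3863, and stayed within 1.5 times of that under all 20 alternatives (2846 to 5721), which were median scaling, the authors' processed table, other detection filters, the mean of a gene's probes, array weights, TNF-treated arrays alone, a replicate block and leaving out each array. With a single array left out it ranged from 2846 to 5055. With the replicate block, which pairs arrays by number, it was 3739. Of 192 named genes called with TNF, 43 lost the call under at least 1 alternative and none reversed. The count of 27 genes for the difference was less stable: 12 with median scaling, 52 with the authors' table, 5 among genes detected on all 12 arrays, 17 with the replicate block (14 of them shared with the 27), and 11 to 132 with single arrays left out. The cause of these moves was not tested, except that the filter on all 12 arrays removes genes undetected without TNF. The TNF-treated arrays alone give no such difference. Precision rests on 3 arrays per group, and probes near background give bounds only.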

Other observations

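Groups not described above also held large changes. Of 7 tested phosphatases of the MAP kinases, 4 were called higher with p53 siRNA and none lower (2 higher with median scaling), DUSP1 (0.67 ± 0.12) and DUSP16 (0.76 ± 0.15) among them. JUND, an AP-1 subunit, changed by 0.71 ± 0.12, while BATF3 was undetected on all p53 siRNA arrays and at least 2.45-fold lower. Genes of the TGF-beta and BMP families that were higher included the ligands BMP2 (1.45 ± 0.20) and BMP4 (1.07 ± 0.22), whereas their targets ID1 and ID3 differed: ID1 was lower (-1.37 ± 0.23, second probe -0.56), and ID3 was called higher (0.91 ± 0.29), a call lost with median scaling, with the authors' processed table (0.43) and without any 1 of the 6 TNF-treated arrays (0.76 to 0.99). In the matrix, LOX, which cross-links collagen, was higher (1.43 ± 0.19), and THBS1 (-1.27 ± 0.17) and LAMB1 (-1.01 ± 0.12) were lower.

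Of 19 tested genes of glucose uptake and glycolysis, 8 were called lower and none higher, PFKP (-1.08 ± 0.18) and ALDOC (-0.98 ± 0.22) among them. The 8 became 5 without control siRNA untreated replicate 3. Of 10 tested genes of the hypoxia response, 4 were called higher, ANGPTL4 (1.12 ± 0.12) and ADM (1.11 ± 0.15) among them. CA12 (above) was the 1 called lower, and the median of the 10 was 0.14. With median scaling 2 were called higher and the median was -0.05. Keratins had 4 of 6 members called lower and none higher, KRT80 at -1.51 ± 0.17 and KRT7 at -1.13 ± 0.16. The trefoil factors TFF2 (1.03 ± 0.14) and TFF3 (1.31 ± 0.14), secreted by mucous epithelia, were higher. In growth factor signalling HBEGF, an EGFR ligand, was lower (-1.17 ± 0.13) and SPRY2, a feedback inhibitor, was higher (0.99 ± 0.15). Of 7 tested MDA-MB-231 markers, 4 were called lower (57.1%, against 16.5% of all genes) and none higher, CAV1 (-0.86 ± 0.13, second probe -0.84) among them. The 4 became 2 without some single TNF-treated arrays. The serine synthesis enzyme PSAT1 was lower (-1.64 ± 0.14), and DDIT3, a transcription factor of the unfolded protein response, was higher (1.29 ± 0.17).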
